A study of Mus musculus with 6 samples.

Results

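Desmosome gene expression was compared between J110 and SSM3 cells, 2 mouse mammary tumour cell lines. The genes examined were 10 components chosen by symbol, namely Dsp, Dsg2, Dsc2, Dsc3, Pkp1, Pkp2, Pkp3, Jup, Perp and Ppl, out of 52636 genes in the deposited count table. Of these, 9 had a count in at least 1 library. There were 3 biological replicates of each line, all cultured cells with no drug treatment described. J110 cells come from tumours of transgenic mice that express AIB1 cDNA from the MMTV LTR, a viral promoter active in mammary epithelium. SSM3 cells come from mammary tumours of 129SvEv mice. Each line is thus a single model, and line, genotype and strain cannot be told apart. J110 cells were kept in less serum and less CO2 than SSM3 cells, so culture conditions differed together with the line. Media of both held insulin and hydrocortisone, and both lines were harvested before they were confluent, after the cells had been detached.

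Desmosomes are junctions that rivet neighbouring epithelial cells together. Their desmosomal cadherins, the desmogleins and desmocollins, span the membrane and bind those of the next cell. On the inside, the armadillo proteins plakoglobin (Jup) and the plakophilins bind the cadherin tails, and desmoplakin (Dsp) ties the plaque to keratin filaments. In the mammary gland, desmosomes join luminal cells to each other and to the basal layer.

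Total counts ranged from 5209740 to 5416305 in J110 libraries and from 4200785 to 4792941 in SSM3 libraries. Levels are given as CPM, the counts scaled to a common library total, with totals adjusted by TMM, a method that balances the make-up of libraries. Errors are the SD of 3 libraries, or the standard error (SE) of a log2 fold change. QuantSeq reads a single tag from the 3′ end of each transcript, so counts do not grow with transcript length, and levels of different genes are set side by side on that scale. Some libraries held traces of genes of the other line. Over genes with at least 50 CPM in the other line and no count in the rest of their own, the trace came to 0.480%, 0.397% and 0.0783% of that level in SSM3 replicates 2, 1 and 3, and to 0.199% in J110 replicate 3 against 0.0192% and 0.0198% in J110 replicates 1 and 2. It rests on 7 to 51 genes a library, a set that differs between libraries, so the order of the traces is approximate. The 6 mammary epithelial markers summed to 2677 to 2766 CPM in J110 libraries and 11961 to 13190 CPM in SSM3 libraries. The keratins Krt8 and Krt18 were abundant in both lines, while Epcam had 2, 1 and 7 counts and Cldn7 0, 0 and 1 counts in J110, so these defining markers, named after their values were seen, were nearly absent there. Marker lists of leukocytes, endothelium, red cells and fibroblasts each summed to at most 2.18 CPM in any library, with none of their genes passing the filter on low counts, and Adgre1, Tie1, Hbb-bs, Hbb-bt, Col1a2 and Lum at 0 in all 6. The names J110 and SSM3 stand for libraries so labelled, and each direction rests on those labels. Ncoa3, the gene of AIB1, had 102 to 110 counts in J110 and 181 to 199 in SSM3. Whether 3′ tags come from the transgene is not given in the sources used here, so this gene does not check the labels.

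Promoters of Dsp and Jup, the linkers that the whole plaque shares, are shown because these are the 2 of the 10 genes for which a promoter window was at hand. They are 300 bases long, from 250 bases before to 50 bases after the RefSeq start (GRCm38.p6), 5′ to 3′ on the gene's strand. Capitals mark matches on either strand to the E-box CAGGTG, the GC box GGGCGG, the ACCGGT centre of the Grainyhead-like motif or the p53 family decamer, and no match overlaps another. A match is a description of the letters and not a binding site.
Dsp, chr13:38151044-38151343, + strand: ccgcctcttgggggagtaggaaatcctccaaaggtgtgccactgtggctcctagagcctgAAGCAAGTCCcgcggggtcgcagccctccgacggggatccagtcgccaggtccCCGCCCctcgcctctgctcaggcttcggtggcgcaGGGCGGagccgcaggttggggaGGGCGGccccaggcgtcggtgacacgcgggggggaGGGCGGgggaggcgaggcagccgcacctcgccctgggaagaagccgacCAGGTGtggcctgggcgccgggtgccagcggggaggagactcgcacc
Jup, chr11:100397741-100398040, - strand: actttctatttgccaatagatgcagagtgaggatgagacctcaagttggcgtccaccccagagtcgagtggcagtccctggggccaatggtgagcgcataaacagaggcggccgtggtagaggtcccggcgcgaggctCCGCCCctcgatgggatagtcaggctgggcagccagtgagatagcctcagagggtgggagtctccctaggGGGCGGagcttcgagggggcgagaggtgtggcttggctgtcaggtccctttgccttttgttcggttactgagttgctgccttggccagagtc

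The Dsp window held 4 GC boxes, 1 E-box that begins at base 4 after the start, and 1 p53 family decamer. The Jup window held 2 GC boxes. Among all 32851 promoter windows of the same length, 35.7% held a GC box, 20.2% an E-box, 8.36% a p53 family decamer and 2.33% the Grainyhead-like centre. G and C made up 73.0% of the Dsp window and 60.7% of the Jup window, against a median of 52.7% over all windows.

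Of the 10 genes, 8 passed the filter on low counts and were compared by the quasi-likelihood test of edgeR, fitted to all 12284 genes that passed, with p-values adjusted after Benjamini and Hochberg. SSM3 had higher levels of Pkp3, Dsg2, Dsp, Jup and Ppl, and J110 had higher levels of Pkp1 and Perp. Pkp2 did not pass the threshold. These 7 calls stand beside a background in which 77.9% of all genes tested passed, with 38.6% of all genes tested higher and 39.2% lower in SSM3, so the number called is near what any set of genes would give. The size of the changes varied more. The median absolute log2 fold change was 2.25 over the 8 genes and 0.84 over all genes tested, and the signed medians were 1.19 and -0.01. Against a change of more than 2-fold, tested by glmTreat, 6 of the 8 passed, against 34.8% of all genes. For 7 of the 8 every library of one line lay above every library of the other, as was so for 79.6% of all genes. Dsg2, Pkp1 and Pkp3 passed the filter only through the line where they were high and had to differ, so these counts and medians describe the genes that passed and are not set against the background as a test.

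**Figure D1:**
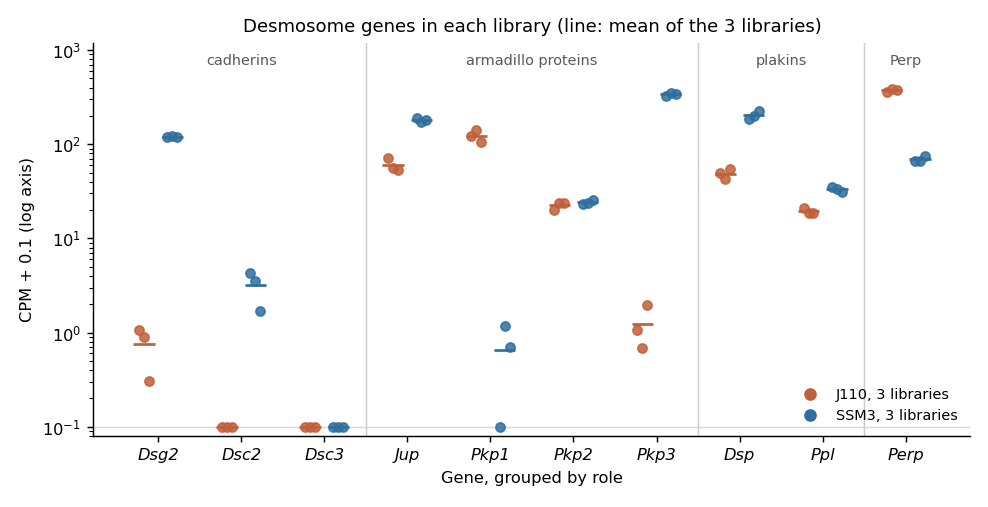
Level of each desmosome gene in each library, as CPM plus 0.1 on a log axis, with J110 and SSM3 libraries as points and the mean of the 3 libraries as a line. Pkp1 and Pkp3 stand at opposite ends in the lines, Pkp2 overlaps, and Dsc3 lies at 0 in all 6 libraries.

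Tags of the desmosomal cadherins came almost wholly from SSM3 libraries. Dsg2 (ENSMUSG00000044393, chr18:20558074-20604521, + strand, mm10), which encodes the desmoglein of simple epithelia, gave 5, 4 and 1 tags in J110 libraries and 532, 581 and 605 in SSM3 libraries. The SSM3 libraries lay close together at 121 ± 2.48 CPM (SD, n = 3), while all J110 libraries were below 1 CPM. The ratio of the summed counts, each scaled by the line's effective library size as for all such ratios here, was 182, with a 95% counting interval from 98.5 to 379, and the log2 fold change was 7.45 (SE 0.19; edgeR, adjusted p = 2.68e-15). The J110 level was 0.798%, 0.655% and 0.173% of the SSM3 mean in replicates 1 to 3, and it was lowest in replicate 3, the J110 library with the largest trace of the other line's genes. An antisense gene that shares exons with Dsg2, Gm16090, had no count in any library.

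Dsc2 (ENSMUSG00000024331, chr18:20030633-20059554, - strand), its desmocollin partner in simple epithelia, was read at a much lower level. It had no count in any J110 library and 19, 16 and 8 counts in SSM3, or 3.07 ± 1.35 CPM (SD, n = 3). By its observed SSM3 counts, Dsc2 was at least 15.1-fold higher in SSM3. This takes 3 counts over the 3 J110 libraries, or 0.199 CPM, as the limit that a count of 0 allows, and leaves out counting error of the SSM3 counts. Dsc2 did not pass the filter on low counts. When every gene with a count was kept, its log2 fold change was 6.91 (SE 0.99) and it was called higher in SSM3. Dsc3 (ENSMUSG00000059898, chr18:19960930-20002351, - strand), a desmocollin of basal and stratified epithelium, had no count in any of the 6 libraries, so it was not detectable above 0.199 CPM (J110) or 0.211 CPM (SSM3). These limits cover counting error only.

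The 3 cadherins sit in 1 cluster on chromosome 18 with 6 other desmosomal cadherin genes. Across that cluster, Dsg1a, Dsg1b, Dsg1c, Dsg4 and Dsc1, which are known from skin and hair, had no count in any library, and Dsg3 had 1 count in J110 replicate 1. Dsg2, at one end of the cluster, thus made up 97.5% ± 1.09 (SD, n = 3) of the counts of Dsg2, Dsc2 and Dsc3 in SSM3, and Dsc2 made up 2.48% ± 1.09. In J110 all 10 counts of these 3 genes were on Dsg2, too few to compare the make-up: the share of Dsc2 in J110 replicate 1 could lie anywhere up to 52.2% (exact binomial 95% limit). B4galt6, the nearest tested gene beyond Dsg2 at 80.1 kb, was called lower in SSM3 (log2 fold change -5.14), opposite to Dsg2.

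**Figure D2:**
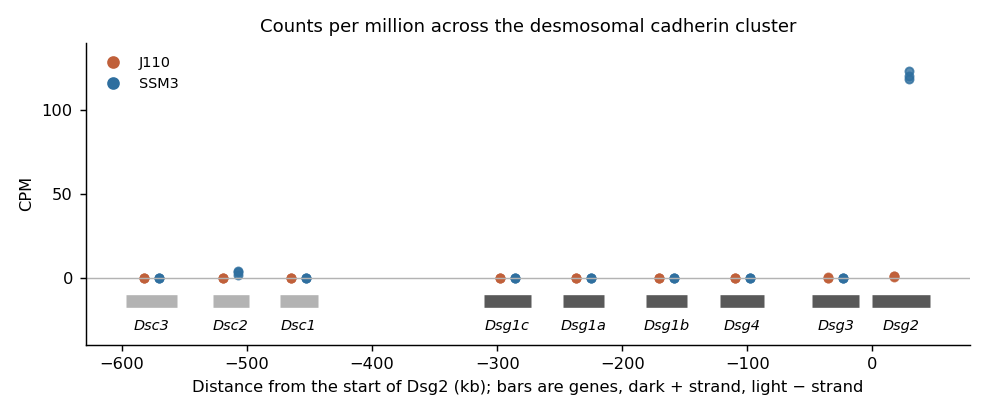
CPM of the 9 desmosomal cadherin genes in each library, plotted by distance in kb from the start of Dsg2, with bars for the genes. Dsg2 in the SSM3 libraries stands alone above 100 CPM, Dsc2 reaches at most 4.23 CPM and the other points lie at or near 0.

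Of the plakophilins, Pkp1 and Pkp3 differed between the lines in opposite directions, and Pkp2 did not pass the threshold. Plakophilins are armadillo proteins that gather cadherins and desmoplakin at the plaque, and their use differs between simple and stratified epithelia. Pkp1 (ENSMUSG00000026413, chr1:135871395-135919207, - strand), the form known from the upper layers of skin, gave 635, 716 and 504 tags in J110 libraries and 0, 5 and 3 in SSM3 libraries. The J110 libraries held 123 ± 18.2 CPM (SD, n = 3) and the SSM3 libraries 0.553 ± 0.532 CPM (SD, n = 3), with no overlap. The scaled ratio of summed counts, J110 over SSM3, was 219 with a 95% counting interval from 111 to 509, and the log2 fold change was -7.71 (SE 0.26; edgeR, adjusted p = 1.15e-13). The SSM3 values were 0.863% of the J110 mean in replicate 2, the library with the largest trace of the other line's genes, and 0.485% in replicate 3, the SSM3 library with the smallest trace. Replicate 1, with the second-largest trace, had no Pkp1 count. Without SSM3 replicate 2 the log2 fold change was -8.49. The traces rest on different genes in each library, and their part in these values was not tested.

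Pkp3 (ENSMUSG00000054065, chr7:141078218-141090510, + strand), a plakophilin of both simple and stratified epithelia, went the opposite way. It gave 5, 3 and 9 tags in J110 libraries and 1447, 1662 and 1721 in SSM3 libraries. The SSM3 level of 339 ± 15.6 CPM (SD, n = 3) was the highest of the 10 genes in that line, against 1.15 ± 0.661 CPM (SD, n = 3) in J110. The log2 fold change was 8.20 (SE 0.16; edgeR, adjusted p = 2.96e-16). J110 replicate 3, with a trace of the other line's genes of 0.199%, had the most Pkp3 counts of the J110 libraries, at 0.554% of the SSM3 mean. J110 replicates 1 and 2 were at 0.284% and 0.175% of that mean, with traces of 0.0192% and 0.0198%. How much of the Pkp3 counts in J110 came from the trace was not tested.

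Pkp2 (ENSMUSG00000041957, chr16:16213318-16272712, + strand), the plakophilin shared with heart muscle, was read at like levels in both lines. Its counts were 103, 120 and 114 in J110 and 103, 112 and 128 in SSM3, and the libraries overlapped. The means were 22.5 ± 2.25 and 24.1 ± 1.29 CPM (SD, n = 3 each), and the log2 fold change was 0.10 (SE 0.14; edgeR, adjusted p = 0.501).

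Read as shares of the counts of Pkp1 to Pkp4, which do not depend on the scaling between libraries, Pkp1 made up 58.4% ± 5.65 in J110 and 0.109% ± 0.104 in SSM3 (SD, n = 3 each). Pkp3 made up 0.556% ± 0.341 and 68.0% ± 1.13. Pkp4, a relative found mainly at adherens junctions, held 30.3% ± 4.58 and 27% ± 1.32, and these shares overlapped (p = 0.4, two-sided exact permutation test). For Pkp1, Pkp2 and Pkp3 the libraries of the lines lay apart (p = 0.1 in a two-sided exact permutation test, the lowest that 3 libraries against 3 can give, and 0.11 after adjustment over 11 such tests). The spread between J110 libraries was widest for Pkp1, whose share was 52.2% in replicate 3, 59.8% in replicate 1 and 63.2% in replicate 2.

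**Figure D3:**
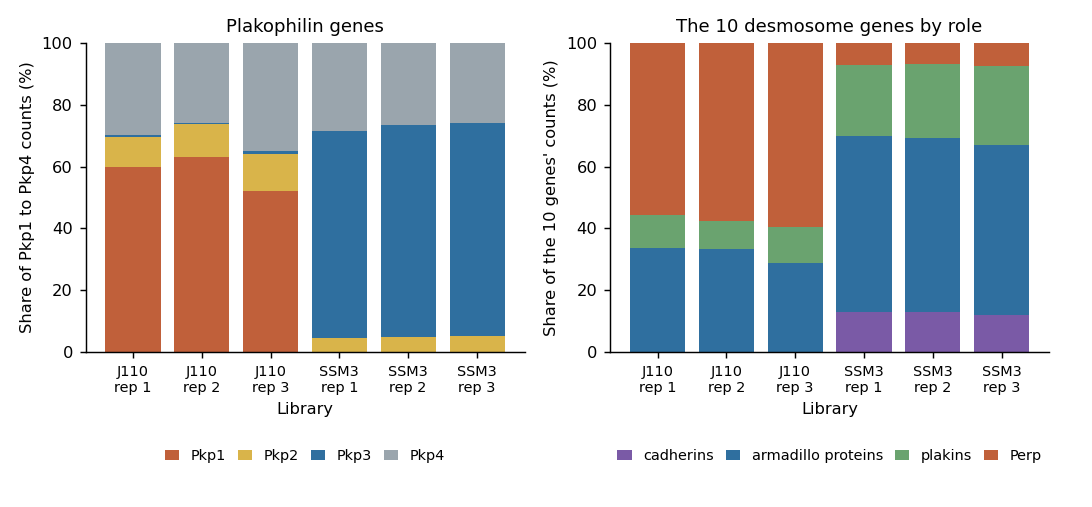
Stacked shares, in percent of counts, of Pkp1 to Pkp4 (left) and of the 10 desmosome genes by role (right) in each of the 6 libraries. Pkp1 fills over 52% of plakophilin counts in each J110 library and Pkp3 over 66% in each SSM3 library, and Perp takes over 55% of desmosome counts in J110 and under 8% in SSM3.

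Jup (ENSMUSG00000001552, chr11:100368958-100397763, - strand) encodes plakoglobin, the armadillo protein that binds the tails of desmosomal cadherins. It gave 371, 279 and 257 tags in J110 libraries and 863, 807 and 912 in SSM3 libraries. The lines did not overlap, with means of 60.1 ± 9.91 and 182 ± 10.4 CPM (SD, n = 3 each). The log2 fold change was 1.59 (SE 0.10; edgeR, adjusted p = 5.91e-10). Its close relative Ctnnb1, which encodes β-catenin of adherens junctions and Wnt signalling, moved the other way, from 1170 ± 8.02 to 490 ± 28.8 CPM (SD, n = 3 each), with a log2 fold change of -1.26 (SE 0.07; edgeR, adjusted p = 4.34e-11). The log2 ratio of Jup to Ctnnb1 counts, with 0.5 added to each, was -4.29 ± 0.22 in J110 and -1.43 ± 0.14 in SSM3 (SD, n = 3 each). The difference in this log2 ratio was 2.86, with the libraries of the lines apart (p = 0.1, two-sided exact permutation, its lowest value), and Ctnnb1 had more counts than Jup in every library.

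The plakins link the plaque to filaments and were counted in both lines. Dsp (ENSMUSG00000054889, chr13:38151294-38198577, + strand), which encodes desmoplakin and whose promoter is printed above, gave 254, 215 and 262 tags in J110 libraries and 828, 939 and 1140 in SSM3 libraries. The lowest SSM3 library stood well above the highest J110 library, with means of 204 ± 21.5 and 48.7 ± 6.08 CPM (SD, n = 3 each). The log2 fold change was 2.06 (SE 0.11; edgeR, adjusted p = 2.30e-11). Gm10129, which shares exons with Dsp on the other strand, had at most 2 counts in a library. J110 libraries thus held desmoplakin and plakoglobin tags, while tags of the 3 desmosomal cadherins numbered only 10 over the 3 libraries.

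Ppl (ENSMUSG00000039457, chr16:5086291-5132421, - strand) encodes periplakin, a plakin of the cornified envelope and desmosomal plaque. Its counts were 109, 93 and 88 in J110 and 158, 158 and 155 in SSM3, means of 19.3 ± 1.52 and 33.2 ± 2.19 CPM (SD, n = 3 each), and the lines did not overlap. The log2 fold change of 0.78 (SE 0.13; edgeR, adjusted p = 3.83e-05) was the smallest of the called genes, and for a change beyond 2-fold the adjusted p of glmTreat was 1.0, where the other alternatives gave adjusted p from 1.5e-07 to 0.00296. The 3′ end of Ppl faces that of Ubn1 with 1 base between them, and Ubn1 had 497 to 527 counts in J110 and 671 to 853 in SSM3, so tags at this end could belong to either gene.

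Perp (ENSMUSG00000019851, chr10:18845020-18857073, + strand), a tetraspan membrane protein of desmosomes and a known target of p53 and p63, was the second gene that was lower in SSM3. It gave 1853, 1946 and 1819 tags in J110 libraries and 300, 312 and 377 in SSM3 libraries. The replicates were tight, at 374 ± 14.7 and 69.4 ± 4.91 CPM (SD, n = 3 each), with no overlap. The log2 fold change was -2.43 (SE 0.08; edgeR, adjusted p = 8.84e-14).

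Summed over the 10 genes, the level was 637 to 668 CPM in J110 libraries and 946 to 1005 CPM in SSM3 libraries. Perp alone made up 57.6% ± 2.0 of these counts in J110 and 7.11% ± 0.339 in SSM3 (SD, n = 3 each). Armadillo proteins made up 31.8% ± 2.49 and 55.9% ± 1.07, plakins 10.5% ± 1.22 and 24.2% ± 1.26, and cadherins 0.10% ± 0.0607 and 12.7% ± 0.486. For each of these roles the libraries of the lines lay apart (p = 0.1, two-sided exact permutation, its lowest value, and 0.11 adjusted over 11 tests). This grouping by role was made after the values were seen.

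**Figure D4:**
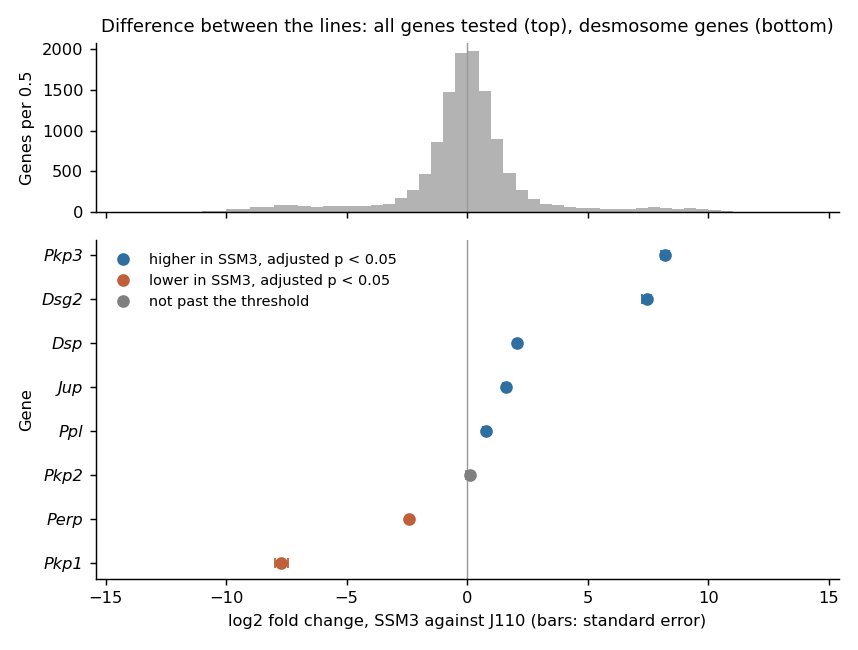
Log2 fold change, SSM3 against J110, for the 8 desmosome genes tested (bottom, with standard error bars) below the distribution over all 12284 genes tested (top, genes per bin of 0.5). The values run from -7.71 for Pkp1 to 8.20 for Pkp3, and the median absolute value over all genes was 0.84.

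Genes with related roles were read from lists written down by function. Their counts stand beside the 77.9% of all genes that were called, and a gene nearly absent from one line could pass the filter only through the other, so its direction among the tested genes was fixed by the filter. Of 9 further desmosome and corneodesmosome components, 2 could be tested, Evpl and Kazn, and both passed the filter through SSM3 and were higher there. Evpl, which encodes envoplakin, the partner of periplakin, gave 3, 3 and 1 tags in J110 and 125, 138 and 145 in SSM3, a log2 fold change of 5.87 (SE 0.27; edgeR, adjusted p = 6.75e-12). Kazn, whose product kazrin binds periplakin, gave 7, 0 and 2 tags in J110 and 87, 77 and 78 in SSM3. Its log2 fold change was 4.77 (SE 0.40; edgeR, adjusted p = 1.43e-08) and 6.21 without J110 replicate 1. Cdsn, a corneodesmosome gene, had 2, 7 and 2 and 0, 4 and 11 counts, and the lines overlapped. Evpl and Kazn are also expressed in stratifying keratinocytes. Of 5 keratinocyte markers, Krt1 had no count and Flg 1 count over all 6 libraries, while SSM3 had more Ivl (log2 fold change 5.31; edgeR, adjusted p = 2.87e-13) and more Lor (log2 fold change 3.68; edgeR, adjusted p = 7.34e-06), and Krt10 did not pass (edgeR, adjusted p = 0.283). The list summed to 12.7 to 13.6 CPM in J110 and 62.9 to 70.6 CPM in SSM3, and its part in the result was not tested.

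Among 6 armadillo and catenin genes of adherens junctions, 5 were tested, of which 4 were lower and 1 was higher in SSM3, and the median log2 fold change was -0.76. The lower ones were Ctnnb1, Ctnna1, Ctnnd1 and Arvcf. Ctnna1, which encodes α-catenin, had a log2 fold change of -0.62 (SE 0.07). Ctnnd1, which encodes p120-catenin, had 456, 404 and 191 counts in SSM3 with the lowest in replicate 3, and a log2 fold change of -1.23 (SE 0.21). Arvcf, a relative of p120-catenin, had 202, 181 and 79 counts in SSM3, and its log2 fold change of -0.76 went to -0.42 without SSM3 replicate 3. With DESeq2 its adjusted p was 0.105, in alternatives that spanned 1.68e-09 to 1.0. Pkp4 was higher by 1.09 on the log2 scale (SE 0.09; edgeR, adjusted p = 1.21e-08). Of 8 other plakin and hemidesmosome genes, 6 were tested. Plec, Itga6 and Itgb4, which together anchor keratins to the basement membrane, were lower in SSM3 with log2 fold changes of -0.60, -0.73 and -0.63, and Cd151 was higher by 0.47. The giant plakins Dst and Macf1 did not pass, with log2 fold changes of -0.07 and -0.13 (edgeR, adjusted p = 0.493 and 0.175), and both signs turned with library size scaling alone. Arvcf, Itgb4, Dst and Macf1 were named after their values were seen.

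Keratins are the filaments that desmosomes anchor. Of 9 filament genes listed, vimentin among them, 7 were tested, with 5 higher and 2 lower in SSM3 and a median log2 fold change of 1.30. Krt8 and Krt18, the keratin pair of simple epithelia, had log2 fold changes of 0.83 and -0.56 (SE 0.07 and 0.06). Krt19 went from 18.6 ± 9.83 CPM in J110 libraries to 7412 ± 363 CPM in SSM3 libraries, and Vim, which encodes vimentin of mesenchymal cells, at 5140 ± 273 and 9.61 ± 8.04 CPM (SD, n = 3 each). The SSM3 mean of Vim rests largely on replicate 2 with 87 counts, against 34 and 14, and the log2 fold change went from -9.07 to -9.97 without it.

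Of 13 transcription factors known to activate epithelial junction genes, 9 were tested, with 7 higher and 2 lower in SSM3 and a median log2 fold change of 5.86, a median set in part by genes that passed the filter only through SSM3. Tfap2a gave 7, 15 and 8 tags in J110 and 547, 565 and 557 in SSM3. Klf5 and Klf4 were the 2 that were lower, with log2 fold changes of -1.0 and -1.40 (SE 0.08 and 0.10). Named after their values were seen, the Grainyhead-like factor gene Grhl2 gave 0, 1 and 2 tags in J110 and 129, 127 and 92 in SSM3, a scaled ratio of 123 with a 95% counting interval from 41.6 to 597, and Trp63, which encodes p63, had no count in J110 and 6, 7 and 9 in SSM3. Of 6 factors known to repress such genes, 3 were tested and lower in SSM3, beside 39.2% of all genes, and none of the 3 would have passed the filter through SSM3 libraries alone. Zeb1 gave 132, 123 and 166 tags in J110 and 0, 1 and 0 in SSM3, a scaled ratio of 398 with a counting interval from 71.1 to 15770, with the single SSM3 tag in replicate 2. Snai2 had 227, 262 and 237 counts against 0, 1 and 0, a scaled ratio of 687 with an interval from 123 to 27168 and the single SSM3 tag again in replicate 2. Without that library the fitted log2 fold changes went from -8.19 to -10.11 for Zeb1 and from -8.98 to -10.89 for Snai2, values that depend on the prior count because SSM3 is then at 0. Snai1 had a log2 fold change of -2.51 (SE 0.28; edgeR, adjusted p = 4.71e-07). A factor and a desmosome gene that moved together in 2 lines share only that contrast.

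Of 10 genes known to act on desmosome assembly or shedding, 9 were tested, with 3 higher and 4 lower in SSM3. Adam10, a protease that sheds desmosomal cadherins, averaged 110 ± 15.1 CPM in J110 libraries and 275 ± 13.2 CPM in SSM3 libraries (SD, n = 3 each). Its log2 fold change was 1.32 (SE 0.09; edgeR, adjusted p = 1.30e-09). Its relative Adam17 had a log2 fold change of 0.57 and Rac1, a small GTPase, one of 0.53. Rhoa, another small GTPase, had a log2 fold change of -0.29 (SE 0.07; edgeR, adjusted p = 0.00178), which did not pass with library size scaling alone (adjusted p = 0.166, while over all alternatives adjusted p went from 0.000636 to 1.0). The other lower genes were Prkca and Src, which encode kinases, and Atp2a2, which encodes a calcium pump, with log2 fold changes of -1.08, -0.85 and -0.29, and Prkcd and Atp2c1 did not pass. The Atp2a2 call was lost with library size scaling alone (adjusted p = 0.311), without J110 replicate 1 (adjusted p = 0.0688), without SSM3 replicate 2 (adjusted p = 0.0740), without both J110 replicate 3 and SSM3 replicate 2 (adjusted p = 0.101) and under glmTreat, while over all alternatives adjusted p went from 0.000641 to 1.0. These genes and Egfr were named after their values were seen. Egfr had 13, 7 and 7 counts in J110 and none in SSM3. By its observed J110 counts and the same limit of 3 counts over the 3 libraries, it was at least 8.52-fold lower in SSM3.

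**Figure D5:**
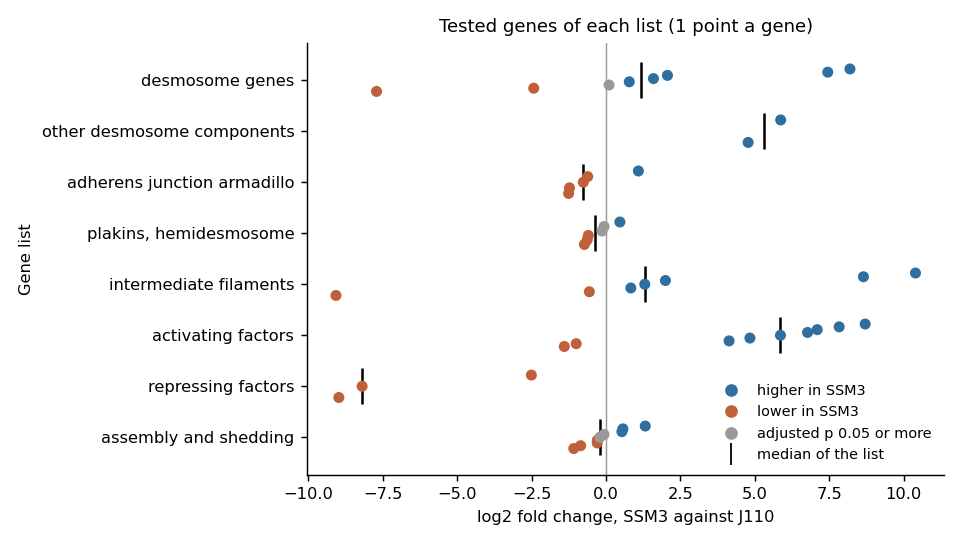
Log2 fold change, SSM3 against J110, of the tested genes of each list (1 point a gene), with the list median as a bar. The desmosome genes spread over both directions with a median of 1.19, the activating factors lie mostly on the SSM3 side with a median of 5.86, and the 3 repressing factors lie on the J110 side.

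Desmosomes also join the cells of heart muscle, so muscle markers were read beside Pkp2 and Dsp. The muscle list summed to 290.3 to 339 CPM in J110 and 1.59 to 3.19 CPM in SSM3. Myh6 had no count in any library and Des at most 3 in a library, Acta1 gave 13, 9 and 12 tags in J110 and 1, 1 and 0 in SSM3, and 1 gene of the list of 4, Tnnt2, could be tested. Tnnt2, which encodes cardiac troponin T, gave 1493, 1515 and 1613 tags in J110 and 7, 11 and 5 in SSM3, a log2 fold change of -7.55 (SE 0.16; edgeR, adjusted p = 5.54e-16). Tnnt2 is the nearest tested gene to Pkp1 on one side, 19.1 kb away and on the opposite strand, and Pkp1 moved in the same direction. Tmem9 on the other side of Pkp1 had a log2 fold change of 0.09 (adjusted p = 0.55). Over the 7 called desmosome genes, 12 of the 14 nearest tested neighbours were called, beside 77.9% of all genes tested, and 6 were called in the direction of the desmosome gene, beside 38.6% of all genes called higher and 39.2% called lower.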

How the data were processed

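RNA of J110 and SSM3 cells in culture, 3 biological replicates each, was read with the QuantSeq 3′ kit. Per the submitters' processing notes and methods, the authors demultiplexed reads with bcl2fastq (2.17.1.14), trimmed them with cutadapt (2.1), mapped them to mm10 with HISAT2 (2.0.4) and counted them with featureCounts of Subread (2.0.0). The authors deposited raw counts per gene, not normalised. The annotation release, strand setting and handling of reads on several genes are not given in the sources used here. Identifiers were matched to GENCODE annotation of GRCm38 (99.7% of 52636 genes), which gave all 10 desmosome symbols.

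Genes were filtered with filterByExpr (minimum count 10), scaled with TMM and tested with edgeR's quasi-likelihood test (edgeR 4.0.16, limma 3.58.1, R 4.3.3), with an adjusted p threshold of 0.05 over all genes. The standard error is the log2 fold change divided by the square root of F. Shares and ratios were tested with the exact permutation test of scipy (1.17.1). Depth was 4200785 to 5416305 counts per library, where 3 counts are 0.578 to 0.668 CPM, and counting intervals cover counting error only. The test was tried on simulated data, where 191 of 200 genes changed 4-fold were recovered among 11984 tested, and 6 unchanged genes were called. The simulation changed far fewer genes than differ here, none by more than 4-fold, and gave every gene the same spread. Recovery in these data may therefore differ.

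The members and gene lists were chosen with earlier results of these data known. Named genes are the 10 members, the 3 of each list with the highest mean CPM, those called against their list's direction, and genes that share exons with a member, and every other gene in the text was named after its values were seen. Replicates are biological per the methods, and the main test did not pair samples by replicate number. Alternatives were DESeq2 (1.42.0), limma-voom, 2 other scalings, 2 other filters, glmTreat, a replicate block, thinned counts, removal of a ribosomal RNA locus, and leaving out libraries. Promoter sequences are from RefSeq. Windows on chromosome 18 (Dsg2, Dsc2 and Dsc3) were left out of the search, which returned 2 of the 10 genes, Dsp and Jup. No identifier of the count table was matched to the symbol Eppk1. Flow cytometry, staining and tamoxifen data were not analysed here. One item is not reported here.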

Additional observations from a re-analysis of the deposited data

How the results depend on the processing

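Between the lines, 9566 genes were called, and 4272 when only changes beyond 2-fold were tested. A minimum of 10 counts in each of the 6 libraries drops by its construction genes that one line lacks, and left 4 desmosome genes called, 3 higher and 1 lower in SSM3, and 23 related genes in place of 37. glmTreat called 20 related genes. The median log2 fold change of the desmosome genes tested was 1.19. It was 1.36 with library size scaling alone, 1.61 with at least 1 count in any library, where Dsc2 enters, and 0.76 with the minimum of 10 in each, where 5 were tested. Leaving out each library in turn gave medians from 1.15 to 1.73, with Dsc2 entering without J110 replicate 1, 2 or 3 or SSM3 replicate 3, 7 to 8 desmosome genes called, 5 to 6 of them higher and 2 lower, 9275 to 9572 genes called in all, and 37 to 38 related genes. Library size scaling alone moved the median of all genes from -0.01 to 0.16. With it, Dst and Macf1, which were not called, changed sign to 0.11 and 0.043, and the sign of Dst also turned when libraries were left out (-0.15 to 0.0017). Atp2c1 passed without SSM3 replicate 3 (adjusted p = 0.0381, in a range up to 1.0). The 8 desmosome genes kept their direction under every alternative that tested them, Pkp2 passed under none with log2 fold changes from 0.01 to 0.28 (adjusted p from 0.0696 to 1.0), and only Ppl lost its call, under glmTreat. Leave-one-out values ranged from -8.49 to -7.18 for Pkp1, from 7.88 to 8.71 for Pkp3 and from 7.05 to 7.81 for Dsg2. Shares and ratios kept their direction, and the Pkp4 share difference ranged from -5.49 to -0.66 percentage points.

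Deviations of libraries with the same replicate number correlated across genes at 0.01, 0.02 and 0.03. Libraries with different numbers correlated at -0.0207 to 0.0076, so each same-number value was the highest for its J110 library. Values this small show no strong pairing and do not settle whether the numbers pair the samples. With the replicate number as a block 9481 genes and 7 desmosome genes were called, 5 higher and 2 lower, 37 related genes were called, and the median of the desmosome genes was 1.19. With no count in any library, Dsc3 was not detectable above 0.199 CPM in J110 or 0.211 CPM in SSM3.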
